A study of Homo sapiens with 10 samples.

Results

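This account follows 10 chemokine genes through a liver cancer cell line: CXCL1, CXCL2, CXCL3, CXCL5, CXCL6, CXCL8, CXCL12 and CXCL16 of the CXC family, and CCL2 and CCL20 of the CC family. They were taken by name from GENCODE 29, and all 10 were found among the 58174 genes of the deposited tables. Their names were chosen with values from these same libraries known, both between genotypes and between the title sets described next, so their differences in those comparisons are a description, and where the number of them past a test's threshold is printed, it stands beside the share of all genes and nothing is read from it. The cells were SNU-387, an established line from a pleomorphic hepatocellular carcinoma, and carried a stable construct for the SRC-family kinase YES, either wild-type (5 libraries) or with the gatekeeper substitution T348I (5 libraries). Every library came from cells given dasatinib, an inhibitor of SRC-family and ABL kinases, at 100 nM, so no value here shows a response to the drug. The sample titles are written in a long form (3 libraries per genotype) and a short form (2 per genotype), and these title sets were kept apart as possible batches. Separate cultures are not named in the labels, so each p-value refers to the scatter among these 10 libraries, and that scatter may be technical.

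Chemokines are small secreted proteins that guide migrating cells through G protein-coupled receptors on their surface. CXCL1, CXCL2, CXCL3, CXCL5, CXCL6 and CXCL8 attract neutrophils through CXCR2, with CXCL6 and CXCL8 also acting on CXCR1. CCL2 draws monocytes through CCR2, CCL20 draws lymphocytes and immature dendritic cells through CCR6, CXCL12 signals through CXCR4 and is scavenged by ACKR3, and CXCL16 is made as a membrane protein whose receptor is CXCR6. Most of the neutrophil-attracting genes and CCL20 are classical targets of NF-kB, a transcription factor switched on by interleukin-1, tumour necrosis factor and Toll-like receptors. CXCL12 is better known as a constitutive product of stromal cells.

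The gene counts came to between 10168307 and 16939029 reads per library. Wild-type long-title library 1 stood apart: the chi-square per degree of freedom over genes was 54.2 and 38.4 between it and libraries 2 and 3, against 14.1 between those and 1.62 to 2.15 among the T348I long-title libraries. The pairs of short-title libraries gave 29.3 (wild-type) and 8.14 (T348I). Wild-type long-title library 2 had the largest shares of reads unmapped (8.64%) and not assigned to a gene (30.0%) of the 10 libraries. Its share of stranded gene reads on the opposite strand was the lowest (92.2%). YES1, the gene of the construct, was counted at 208 to 454 CPM (the gene's count scaled to a common library size by TMM) in wild-type and 313 to 547 CPM in T348I libraries. The means of YES1 were 303 ± 102 and 453 ± 86.4 CPM (SD, n = 5 each). On leaving out each library, the fitted log2 difference of YES1 (T348I minus wild-type) ran from 0.42 to 0.76. Its lowest level was that of wild-type long-title library 1. The substitution cannot be seen in such counts, which join endogenous and introduced transcript, and the genotype is therefore not checked by them. In the genotype comparisons below, the substitution and the level of YES1 transcript cannot be told apart. Of 9 hepatocyte markers 5, namely ALB, APOA1, TTR, HNF4A and CYP3A4, had at most 3 counts in any library, while the mesenchymal genes FN1, COL1A2 and SPARC were abundant. Of 9 leukocyte markers 4, namely CD3E, CD2, MS4A1 and CD68, also had at most 3 counts, and 2 had at least 10 counts in every library. The 5 epithelial markers (KRT8, KRT18, KRT19, EPCAM and CDH1) summed to 673 to 1001 CPM per library. Among them KRT19 and CDH1 had at most 3 counts, and 2 genes had at least 10 counts in every library.

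The neutrophil-attracting genes lie together on chromosome 4 of GRCh38, in the order CXCL8, CXCL6, CXCL1, CXCL5, CXCL3 and CXCL2, within 359 kb (73740506 to 74099293). CXCL12 lies on chromosome 10, CXCL16 and CCL2 on chromosome 17 and CCL20 on chromosome 2. RefSeq promoter windows (GRCh38.p14) were at hand for 8 of the 10 genes, all but CCL2 and CXCL16. All 8 are shown because 6 genes that share a stretch of chromosome also share letters just before their start. The 150 bases before the RefSeq start are given 5′ to 3′ on the gene's strand; GENCODE 29 begins several of these genes further upstream. Capitals mark the longest run found in all 6 chromosome 4 windows with its flanking NF-kB consensus letters, the TGANTCA match of CXCL8 and the NF-kB consensus match of CCL20. The windows are chr4:73869243-73869392 (plus strand), chr4:74099196-74099345 (minus), chr4:74038690-74038839 (minus), chr4:73998678-73998827 (minus), chr4:73836528-73836677 (plus), chr4:73740419-73740568 (plus), chr2:227813692-227813841 (plus) and chr10:44385098-44385247 (minus).
CXCL1: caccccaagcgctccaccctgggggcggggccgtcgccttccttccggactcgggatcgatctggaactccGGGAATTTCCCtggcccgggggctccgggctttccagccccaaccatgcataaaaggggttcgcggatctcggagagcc
CXCL2: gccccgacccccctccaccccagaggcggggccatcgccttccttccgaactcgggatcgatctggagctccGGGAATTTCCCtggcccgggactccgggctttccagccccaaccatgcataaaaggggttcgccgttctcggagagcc
CXCL3: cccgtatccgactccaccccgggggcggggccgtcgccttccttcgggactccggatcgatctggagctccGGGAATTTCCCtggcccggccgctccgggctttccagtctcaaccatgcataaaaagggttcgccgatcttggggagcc
CXCL5: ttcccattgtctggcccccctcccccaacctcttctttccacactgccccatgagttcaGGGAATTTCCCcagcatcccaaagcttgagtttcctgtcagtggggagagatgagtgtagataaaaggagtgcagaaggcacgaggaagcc
CXCL6: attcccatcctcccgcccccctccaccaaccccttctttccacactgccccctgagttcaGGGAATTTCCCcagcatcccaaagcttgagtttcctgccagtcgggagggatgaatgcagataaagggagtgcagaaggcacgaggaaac
CXCL8: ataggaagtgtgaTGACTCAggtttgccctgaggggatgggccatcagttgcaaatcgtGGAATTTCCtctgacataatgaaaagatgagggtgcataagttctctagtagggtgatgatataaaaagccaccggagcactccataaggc
CCL20: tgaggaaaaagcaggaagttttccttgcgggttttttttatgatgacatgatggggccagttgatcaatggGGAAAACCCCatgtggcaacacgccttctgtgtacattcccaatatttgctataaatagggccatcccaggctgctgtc
CXCL12: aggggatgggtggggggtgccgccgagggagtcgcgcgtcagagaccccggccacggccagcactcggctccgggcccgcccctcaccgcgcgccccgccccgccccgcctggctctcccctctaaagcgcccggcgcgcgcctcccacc
The run common to the 6 windows is GGAATTTCC. It begins 78, 77, 78, 90, 89 and 91 bases before the start of CXCL1, CXCL2, CXCL3, CXCL5, CXCL6 and CXCL8. Among the 27149 promoter windows of the table, searched on both strands over 250 bases before the start, 117 held it (0.431%). Lined up on this run without gaps, CXCL1 and CXCL3 matched at 129 of 150 bases and CXCL5 and CXCL6 at 135 of 149. CXCL8 matched CXCL1 at 41 of 137. The NF-kB consensus, a pattern of 10 letters that overlaps the run, was found in CXCL1, CXCL2, CXCL3, CXCL5, CXCL6 and CCL20, and in 9.56% of all windows. The CXCL8 run lacks the extra letter of that consensus. TGANTCA, the letters of an AP-1 site, was found in CXCL8 and in 6.62% of all windows, and TATAAA in CXCL8, CCL20 and 11.2% of all. None of these letters was found in the CXCL12 window. The searches were chosen after the values were seen, and a match is a stretch of letters, not a bound site.

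Levels of different genes were compared as CPM per kilobase of merged exons. In the long-title libraries CXCL8 (median 98.9 CPM per kilobase) and CXCL5 (89.1) led, followed by CCL20 (27.9), CXCL1 (13.5), CCL2 (11.3), CXCL12 (10.7), CXCL2 (10.6) and CXCL3 (6.38). CXCL6 (0.297) and CXCL16 (0.208) were lowest. The ranges of neighbours in this order overlapped, except between CXCL5 and CCL20. In the short-title libraries the order was led instead by CXCL12 (28.7), with CCL2 (7.54), CXCL5 (6.97) and CXCL8 (6.61) next. Then came CXCL2 (1.58), CXCL1 (1.28), CXCL3 (0.779), CCL20 (0.283), CXCL16 (0.155) and CXCL6 (0.0528). There the neighbours stood apart between CXCL12 and CCL2, between CXCL8 and CXCL2, and between CXCL3 and CCL20, and overlapped elsewhere. CXCL1, CXCL2 and CXCL3 resemble each other: 5.73%, 9.24% and 5.26% of the 50-base stretches of their main transcripts occur in another gene, so their counts rest on the distinct remainder.

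CXCL8, the interleukin-8 gene, was counted at 319, 178 and 149 CPM in wild-type and at 257, 239 and 211 CPM in T348I long-title libraries 1, 2 and 3. In the short-title libraries 1 and 2 it stood at 6.96 and 7.37 CPM in wild-type and at 46.0 and 22.7 CPM in T348I. Every long-title library thus lay above every short-title library, and within the short-title set both T348I libraries lay above both wild-type ones. CXCL5, a neutrophil attractant first described in epithelial cells, was at 776, 117 and 106 CPM in wild-type and 226, 246 and 226 CPM in T348I long-title libraries. Its short-title values were 6.30 and 12.1 CPM in wild-type and 23.3 and 23.4 CPM in T348I. Wild-type long-title library 1 alone exceeded the T348I libraries; the other 4 wild-type libraries lay below the T348I libraries of their set.

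CXCL1, CXCL2 and CXCL3 encode the closely related GRO chemokines. CXCL1 was at 182, 17.0 and 17.9 CPM in wild-type and 16.4, 17.4 and 17.6 CPM in T348I long-title libraries, so the genotypes were close there outside library 1. In the short-title libraries it was at 0.663 and 1.46 CPM in wild-type and 1.85 and 2.41 CPM in T348I. CXCL2 was at 25.8, 12.2 and 11.7 CPM in wild-type and 15.3, 18.7 and 16.6 CPM in T348I long-title libraries. Its short-title values, 2.40 and 1.14 CPM in wild-type and 3.55 and 2.35 CPM in T348I, overlapped between genotypes. CXCL3 stood at 26.3, 5.31 and 6.16 CPM in wild-type and at 14.9, 15.5 and 13.5 CPM in T348I long-title libraries. In the short-title set it was at 1.33 CPM in both wild-type libraries and at 4.07 and 2.12 CPM in T348I. Outside library 1, CXCL3 was higher with T348I in both title sets.

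CXCL6, which encodes granulocyte chemotactic protein, was close to absent in all libraries but a single wild-type one. Wild-type long-title library 1 held 350 counts (27.4 CPM), and libraries 2 and 3 held 7 and 5. The T348I long-title libraries held 9, 14 and 5 counts. In the short-title libraries there was 1 count in each wild-type library and there were 2 and 4 in T348I. The gene did not pass the filter on low counts. CXCL16 did not pass it either, with 3 to 17 counts in every library (0.249 to 1.08 CPM), and its groups overlapped in both comparisons.

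CCL20 showed the widest gap between title sets. It was at 29.3, 45.8 and 41.8 CPM in wild-type and 43.1, 53.4 and 48.0 CPM in T348I long-title libraries. In the short-title set it held 10 and 4 counts in wild-type (0.829 and 0.254 CPM) and 6 and 8 counts in T348I (0.443 and 0.459 CPM). The lowest long-title library was 35.4 times the highest short-title one, while the genotypes overlapped within both sets. It was also the only one of the 8 tested genes that was lower in wild-type long-title library 1 than in libraries 2 and 3.

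CCL2, which encodes the monocyte attractant MCP-1, was at 121, 23.3 and 28.8 CPM in wild-type and 19.4, 21.6 and 15.8 CPM in T348I long-title libraries. The short-title libraries held 13.7 and 16.3 CPM in wild-type and 12.9 and 18.2 CPM in T348I, so the title sets overlapped. CXCL12 ran the other way. It was at 484, 71.0 and 87.8 CPM in wild-type and 53.7, 54.9 and 59.0 CPM in T348I long-title libraries, and at 245 and 185 CPM in wild-type and 132 and 163 CPM in T348I short-title libraries. Within each title set all wild-type libraries lay above all T348I libraries, and outside library 1 the short-title libraries lay above the long-title ones.

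The title sets differed most. CCL20 averaged 43.5 ± 8.08 CPM (SD, n = 6) in long-title and 0.496 ± 0.240 CPM (n = 4) in short-title libraries, a fitted log2 difference (short minus long) of -6.48 ± 0.24 (SE). The corresponding values were -4.44 ± 0.85 for CXCL1, -4.13 ± 0.62 for CXCL5, -3.66 ± 0.40 for CXCL8, -2.86 ± 0.29 for CXCL2 and -2.67 ± 0.45 for CXCL3. CCL2 had -1.10 ± 0.46 and CXCL12 0.72 ± 0.45. In all, 6 of the 8 tested genes lay without overlap above the short-title set in the long-title set, as did 12.7% of all 13743 genes tested, and none lay below it (10.2%). At an edgeR adjusted p under 0.05 (a call, here and below) 6 of 8 were lower in the short-title set, where 22.1% of all genes were, and none higher (21.0%), with 43.1% of all genes called in either direction; nothing is read from this, since the genes were named with it known. The median over the 8 genes was -3.26, beside -0.0057 over all genes. Without wild-type long-title library 1 the difference for CXCL12 was 1.43 ± 0.10 and that for CXCL1 -3.37 ± 0.19, and 7 of 8 genes were called lower (24.6% of all genes) and 1 higher (25.6%). Run, day or culture behind the titles are not named in the labels, so what the title sets stand for cannot be told apart.

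The genotype comparison depended on 1 library. With all 10 libraries the log2 difference (T348I minus wild-type, title set in the model) was -1.54 ± 0.70 (SE) for CXCL1, -1.38 ± 0.46 for CXCL12, -0.99 ± 0.43 for CCL2, 0.09 ± 0.52 for CXCL5, 0.20 ± 0.25 for CXCL2, 0.27 ± 0.17 for CCL20, 0.45 ± 0.40 for CXCL3 and 0.81 ± 0.35 for CXCL8. The median was 0.15, beside -0.03 over all genes. None of the 8 genes was called higher (13.7% of all genes) and 1, CXCL12, was called lower (13.3%), with 27.0% of all genes called in either direction. The call of CXCL12 ended when the 3 T348I long-title libraries were added up as 1 (log2 difference -1.09), without the title set term (-1.21), in limma-voom (-1.03) and within either title set alone. It also ended without any one of the T348I long-title libraries, T348I short-title library 1 or wild-type short-title library 1 (-1.49 to -1.26). DESeq2 gave CXCL12 no adjusted p (-1.39). With no low-count filter, CXCL3 and CXCL8 were called higher and CXCL1, CXCL12 and CCL2 lower, among 4109 calls over all genes. Without wild-type long-title library 2, CXCL1 and CXCL12 were called lower, among 4676 calls. Nothing is read from these numbers. In none of the 8 did the 5 T348I libraries lie all above (6.94% of all genes) or all below (4.15%) the 5 wild-type ones.

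Without wild-type long-title library 1 the values were 1.30 ± 0.18 for CXCL3, 1.15 ± 0.12 for CXCL5, 1.10 ± 0.25 for CXCL8 and 0.57 ± 0.17 for CXCL2. CXCL1 moved to 0.18 ± 0.17, CCL20 to 0.13 ± 0.13, CCL2 to -0.23 ± 0.14 and CXCL12 to -0.53 ± 0.10. That made 4 genes called higher (14.1% of all genes in that fit) and 1 lower (13.3%; 27.4% in either direction). CXCL3, CXCL5 and CXCL8 were then above wild-type without overlap in both title sets, as were 16.0% of all genes, and CXCL12 was below in both, as were 13.7%. These shares are printed for scale, and nothing is read from them.

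Within the title sets the same genes can be followed apart. In the short-title libraries alone the difference was 2.26 ± 0.28 for CXCL8, 1.34 ± 0.24 for CXCL5, 1.20 ± 0.40 for CXCL3, 0.98 ± 0.43 for CXCL1, 0.77 ± 0.40 for CXCL2, 0.07 ± 0.20 for CCL2 and -0.53 ± 0.16 for CXCL12. CCL20 was not fitted there for want of counts. Of the 8 genes, 4 lay above wild-type without overlap (29.6% of all genes) and 1 below (29.6%). In the long-title libraries without library 1 it was 0.53 ± 0.11 for CXCL8, 1.07 ± 0.09 for CXCL5, 1.35 ± 0.15 for CXCL3, -0.03 ± 0.11 for CXCL1, 0.51 ± 0.13 for CXCL2, -0.45 ± 0.15 for CCL2 and -0.50 ± 0.11 for CXCL12. There 4 lay above (23.0% of all genes) and 2 below (22.9%). With library 1 included the long-title values were 0.13 for CXCL8, -0.52 for CXCL5, 0.19 for CXCL3, -2.09 for CXCL1, -1.62 for CCL2 and -1.95 for CXCL12. CXCL5 thus lay below 0 in the long-title set with library 1 and above 0 without it. CXCL1 was near 0 without it in the long-title set and at 0.98 in the short-title set.

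**Figure D1:**
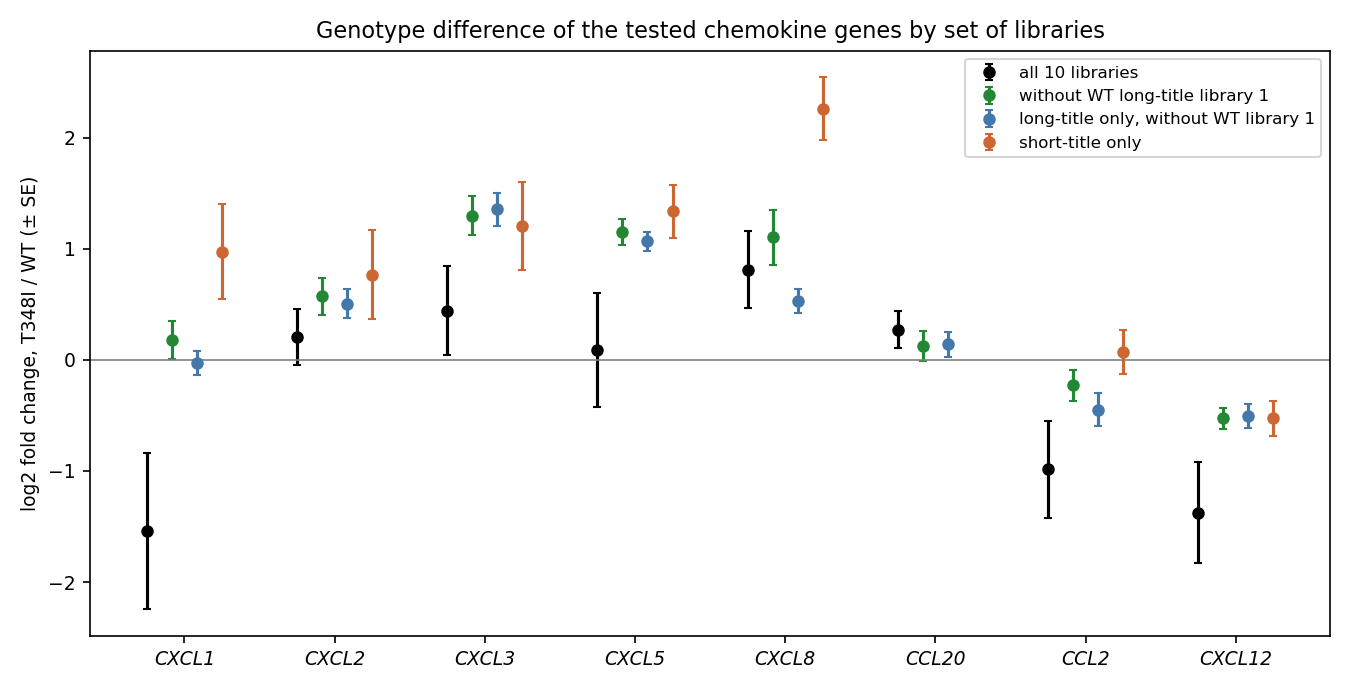
Fitted log2 fold change (T348I over wild-type) of the 8 tested chemokine genes with its standard error, from all 10 libraries, without wild-type long-title library 1, and within each title set. CXCL5 moves from 0.09 to 1.15 and CXCL1 from -1.54 to 0.18 when that library is left out.

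Whether the genotype difference itself differed between title sets was tested as an interaction over all genes. It is fitted to the same library values that were known when the chemokine genes were chosen, so their interactions are a description. None of the 13743 genes passed (0.0%; edgeR, 459 at an unadjusted p under 0.05). DESeq2 called 2 and limma-voom none, with 322 and 427 genes at an unadjusted p under 0.05. CXCL8 had the smallest p among the chemokine genes, with a log2 interaction of 2.12 ± 0.47 and an unadjusted p of 0.00064 in edgeR that became an adjusted p of 0.997. Leaving out wild-type long-title library 1, it was 1.69 ± 0.31 (edgeR adjusted p = 0.149). The other 7 also had an edgeR adjusted p of 0.997, with interactions from -0.47 (CCL20) to 3.04 ± 1.63 (CXCL1).

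Wild-type long-title library 1 held more of most of these transcripts than its companions. Against the mean of libraries 2 and 3 its CPM was 10.4 times as high for CXCL1, 6.96 for CXCL5, 6.10 for CXCL12, 4.66 for CCL2, 4.58 for CXCL3 and 2.16 for CXCL2. The ratio was 1.95 for CXCL8 and 0.669 for CCL20. Thus 6 of the 8 tested genes were at least 2-fold above, beside 3.82% of all genes tested, and none was at least 2-fold below (3.19%). Among other NF-kB targets 8 of 15 were at least 2-fold above, with SAA1 at 14.1, VCAM1 at 7.35 and CSF2 at 4.81, while among the NF-kB pathway genes 1 of 17 was (NFKBIA, 2.11). The same held for 3 of 9 protease and proteoglycan genes (SDC1, SDC4 and GPC6) and 1 of 3 receptor genes (CXCR4). It held for 1 of 20 genes upstream of NF-kB, 1 of 11 mRNA decay genes and 0 of 3 other chemokines. The collagen gene COL1A1 was at 9.93 and COL1A2 at 4.81. CD14, a co-receptor of TLR4 found on monocytes, was at 5.44, and the summed level of the 9 leukocyte markers in that library was 89.8 CPM, the highest of all, against 18.4 to 35.8 CPM in T348I libraries. That sum rested on CD14 and CSF1R, as PTPRC had 1 to 9 counts and the markers named above at most 3. The summed mesenchymal markers were also highest there, at 36809 CPM against 8459 to 13088 CPM in T348I libraries. Other wild-type libraries held more than that too, since the short-title maximum of 17647 CPM lies above the T348I range. The lowest sums among wild-type libraries were 11884 CPM for the mesenchymal and 29.8 CPM for the leukocyte markers. The part these transcripts or any handling of the library had in the chemokine values was not tested, and in bulk RNA a change in some of the cells cannot be told apart from a change in each.

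Further lists of genes follow, which were also chosen with earlier results of these data known. The calls of their genes are therefore a description and not independent evidence. The receptors of these ligands were scarce in the same cells. CXCR1, CXCR2, CXCR6 and CCR6 had 0 counts in all libraries, which allows up to 3 counts or 0.172 to 0.295 CPM in a library, and CCR2 had 1 count in total. CXCR4 was present at 5.03 CPM on average, with a genotype log2 difference of -0.17 ± 0.26 (edgeR adjusted p = 0.652) that turned to 0.10 without wild-type long-title library 1. ACKR3, the scavenger of CXCL12, fell from 37.9 ± 13.5 to 25.1 ± 4.24 CPM (SD, n = 5; log2 difference -0.59 ± 0.17, edgeR adjusted p = 0.0182), with genotypes overlapping. Its call ended without T348I long-title library 2 (edgeR adjusted p = 0.0509) or wild-type short-title library 1 (0.0605). In all, 3 of 23 receptor genes were tested, none rose (13.7% of all genes) and 1 fell (13.3%).

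Other chemokines were mostly silent. Of 36 further chemokine genes found in the tables, 17 had no counts and 8 had at most 3 in any library, and 3 were tested: CCL24, CCL26 and CCL28. CCL26, eotaxin-3, fell by 1.06 ± 0.33 on the log2 scale (edgeR adjusted p = 0.0314), a call that ended without any of 6 libraries, namely the T348I long-title libraries 1, 2 and 3, T348I short-title library 2, wild-type long-title library 1 and wild-type short-title library 2 (edgeR adjusted p 0.0577 to 0.0801). CCL28, the most abundant, was at 8.02 ± 1.17 and 6.75 ± 0.850 CPM in wild-type and T348I (edgeR adjusted p = 0.144). None of the 3 was called between title sets, where 43.1% of all genes were.

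Upstream of NF-kB, receptors and adaptors moved both ways with genotype, 2 rising and 7 falling of 20 tested, beside 13.7% and 13.3% of all genes. IRAK1, a kinase of interleukin-1 and Toll-like receptor signalling, rose from 251 ± 56.4 to 394 ± 40.5 CPM (log2 difference 0.64 ± 0.14, edgeR adjusted p = 0.00476), and the adaptor TRAF2 rose by 0.41 ± 0.10 (0.00927). TLR2 fell from 6.75 ± 4.73 to 2.54 ± 1.58 CPM (-1.37 ± 0.18, edgeR adjusted p = 0.000208). The interleukin-17 receptor chain IL17RC fell by 0.64 ± 0.13 (0.00268), the interleukin-1 receptor IL1R1 by 0.59 ± 0.14 (0.00687) and TLR4 by 0.48 ± 0.13 (0.0135). The other 3 that fell were TLR3, a receptor of double-stranded RNA (-0.55 ± 0.19, edgeR adjusted p = 0.0465), and the adaptors TRADD (-0.41 ± 0.14, 0.0478) and TRAF3IP2 (-0.40 ± 0.13, 0.0358). The call of TLR3 ended without any one of 8 libraries, all but T348I short-title library 2 and wild-type short-title library 1 (edgeR adjusted p 0.0521 to 0.136), and that of TRADD without any one of 8, all but T348I short-title library 2 and wild-type long-title library 2 (0.0691 to 0.129), in limma-voom and in unstranded counts. That of TRAF3IP2 ended without any one of 6, namely the 3 T348I long-title libraries, T348I short-title library 1, wild-type long-title library 3 and wild-type short-title library 2 (edgeR adjusted p 0.0519 to 0.0945). Between title sets 11 fell in the short-title libraries and 1 rose, beside 22.1% and 21.0% of all genes. IL1B, the gene of interleukin-1 beta, went from 196 CPM in long-title to 27.5 CPM in short-title libraries (-2.84 ± 0.12, edgeR adjusted p = 7.1e-09). TNFRSF1A, a receptor of tumour necrosis factor, differed by -0.27 between genotypes (edgeR adjusted p = 0.0626).

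The NF-kB subunits, kinases and inhibitors were all measured, and of 17 none rose (13.7% of all genes) and 4 fell (13.3%) with T348I. The inhibitor gene NFKBIA, itself a target of NF-kB, fell from 79.6 ± 46.5 to 46.7 ± 13.9 CPM (-0.72 ± 0.18, edgeR adjusted p = 0.0100). The deubiquitinase CYLD fell by 0.36 ± 0.10 (edgeR adjusted p = 0.0142, and 0.0522 without T348I long-title library 1). NFKBIZ and TNFAIP3, both feedback genes of the pathway, fell by 0.46 ± 0.15 (0.0362) and 0.43 ± 0.15 (0.0444). Both calls ended without any of the 3 T348I long-title libraries. That of NFKBIZ also ended without either library 1 of the short-title set, and that of TNFAIP3 without T348I short-title library 2 or wild-type long-title library 3 (edgeR adjusted p 0.0608 to 0.125 over the 2 genes). TNIP1, an inhibitor of the pathway and the most abundant uncalled gene, had a log2 difference of -0.21 (edgeR adjusted p = 0.299), and RELA, encoding a main subunit, 0.04 (edgeR adjusted p = 0.768). Between title sets 11 of 17 fell in the short-title libraries (22.1% of all genes) and none rose (21.0%), with TNFAIP3 at -2.06 ± 0.16 (edgeR adjusted p = 9.64e-07) and NFKBIZ at -1.59 ± 0.16 (8.63e-06).

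Other cytokine and adhesion genes known as NF-kB targets split by genotype, 2 rising and 5 falling of 15 tested, beside 13.7% and 13.3% of all genes. LIF, a cytokine of the interleukin-6 family, rose from 32.8 ± 22.3 to 76.7 ± 45.3 CPM (1.29 ± 0.13, edgeR adjusted p = 4.99e-05). IL11, a relative of LIF, rose from 9.61 ± 6.35 to 24.99 ± 5.09 CPM (1.37 ± 0.33, edgeR adjusted p = 0.00832), with no overlap between genotypes. The macrophage growth factor gene CSF1 fell by 0.57 ± 0.13 (0.00615). SOD2, a mitochondrial superoxide dismutase, fell by 1.08 ± 0.28 (edgeR adjusted p = 0.0134) and PTGS2, a cyclooxygenase, by 0.68 ± 0.19 (0.0174). Their calls ended without T348I long-title library 1 (edgeR adjusted p = 0.0503 for SOD2 and 0.0570 for PTGS2) or 3 (0.0503 and 0.0518). SAA1, an acute-phase gene, fell by 2.97 ± 0.86 (0.0221), and by 0.55 without wild-type long-title library 1 (edgeR adjusted p = 0.318). Its call also ended without any T348I long-title library or T348I short-title library 1 (edgeR adjusted p 0.0517 to 0.0760). C3, the gene of the central complement component, fell by 1.02 ± 0.34 (edgeR adjusted p = 0.0390), a call that ended in DESeq2 and limma-voom and without any one of the 3 T348I long-title libraries, T348I short-title library 1 or wild-type short-title library 1 (edgeR adjusted p 0.0674 to 0.100). IER3, an immediate early gene and the most abundant uncalled one, had 0.22 (edgeR adjusted p = 0.0878). Between title sets 11 of the 15 fell in the short-title libraries (22.1% of all genes) and none rose (21.0%), among them CSF2 (-4.62 ± 0.61), PTGS2 (-3.47 ± 0.22), ICAM1 (-3.11 ± 0.15) and IL6 (-3.04 ± 0.21).

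Chemokine messages are unstable, and genes that bind or cut such messages were followed too. KHSRP, whose protein promotes decay of AU-rich messages, rose by 0.42 ± 0.09 on the log2 scale with T348I (edgeR adjusted p = 0.00324), and ZFP36L2, of a family that does the same, by 0.34 ± 0.09 (0.0112). ELAVL1, whose protein stabilises such messages, rose by 0.29 ± 0.08 (0.0179), a call that ended without T348I long-title library 2 (edgeR adjusted p = 0.0556) or T348I short-title library 1 (0.0616). These 3 of 11 were called, all upward, beside 13.7% of all genes. ZFP36L1, the most abundant uncalled one, had -0.32 (edgeR adjusted p = 0.0644). Between title sets 5 rose in the short-title libraries and 3 fell, beside 21.0% and 22.1% of all genes. ZC3H12A, a ribonuclease gene induced by NF-kB, was at -2.47 ± 0.32 (edgeR adjusted p = 5.98e-05).

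At the cell surface, proteases cut and proteoglycans hold chemokines. DPP4, a peptidase that shortens CXCL12, fell from 64.7 ± 10.1 to 43.8 ± 13.2 CPM (-0.60 ± 0.15, edgeR adjusted p = 0.0104), and the sheddase gene ADAM17 fell by 0.28 ± 0.07 (0.00671). The syndecan gene SDC1 rose from 4.99 ± 4.65 to 9.84 ± 9.26 CPM (0.92 ± 0.20, edgeR adjusted p = 0.00517). SDC3 fell by 0.43 ± 0.12 (0.0223), a call that ended without any of the T348I long-title libraries, T348I short-title library 1 or wild-type short-title library 2 (edgeR adjusted p 0.0513 to 0.0679). Of 9 tested, 1 rose and 3 fell with T348I, beside 13.7% and 13.3% of all genes. In the short-title set 1 rose (SDC1, 2.58 ± 0.20) and 4 fell, beside 21.0% and 22.1% of all genes. GPC1, a glypican gene, was at 336 ± 55.8 and 330 ± 21.2 CPM (edgeR adjusted p = 0.869).

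Across these 7 lists, with 3, 3, 20, 17, 15, 11 and 9 genes tested in turn, 29 genes were called between genotypes. Of all genes tested 27.0% were called. When the 3 T348I long-title libraries, which differ little more than by counting noise, were summed into 1 library, 6 of the calls held: TLR2, IL17RC, IL11, LIF, KHSRP and SDC1. In that fit 1462 of all 14371 genes tested were called. Without the title set in the model 3 held, IRAK1, IL17RC and IL11. The calls over all genes then numbered 1315, against 3709 with the title set.

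Levels of the chemokine genes were also correlated across the 10 libraries. Among CXCL1, CXCL2, CXCL3, CXCL5, CXCL8 and CCL20 the 15 pairwise correlations of log2 CPM over the 10 libraries were 0.84 to 0.97, and 0.87 to 0.97 without wild-type long-title library 1. CXCL12 correlated with the other 7 at -0.52 to 0.48, and at -0.99 to -0.53 without that library. The libraries share their title set and genotype, so these values carry no p. CXCL1, CXCL2, CXCL3, CXCL5, CXCL8 and CCL20 were higher in every long-title than in every short-title library. That gap was known when the genes were chosen, and the correlations include it. For CXCL12 the short-title libraries were the higher ones outside wild-type long-title library 1. No correlation between pairs of chemokine genes was calculated after subtracting group means, so how the pairs vary within groups was not tested. Outside the chemokines, the protein-coding genes most like CXCL5 were SLC39A8 (r = 0.99), a metal ion transporter, and PLSCR1 (0.99). CXCL1 was most like TSPAN3 (0.99) and SLC39A8 (0.98), and CXCL3 most like TALDO1 (0.98) and INHBA (0.98). CXCL8 and CXCL2 shared the transcription factor gene KLF10 (0.99 and 0.98) as their closest, with PTX3 (0.99), an acute-phase pentraxin, next for CXCL8 and SHC3 (0.98) for CXCL2. CXCL12 was most like the receptor tyrosine kinase gene ROS1 (0.98) and the collagen VI genes COL6A2 (0.98) and COL6A1 (0.98). CCL2 was closest to CTSB (0.97), a lysosomal protease, and CD14 (0.97), which dropped to 0.88 and 0.83 without wild-type long-title library 1. CCL20 was closest to PGBD5 (0.997) and TNFRSF10B (0.992). After the mean of each genotype and title group was subtracted, the r of CCL20 was 0.85 with PGBD5 and 0.07 with TNFRSF10B. In the same step r was 0.99 for CXCL5 with SLC39A8 and 0.79 for CXCL2 with KLF10. Wild-type long-title library 1 is part of these values. CXCL5 was at 776 CPM there, against 117 and 106 CPM in libraries 2 and 3. No r with group means subtracted was calculated without that library.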

How the data were processed

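RNA with poly(A) tails was sequenced in stranded libraries. Per the submitters' processing notes, the authors used CASAVA 1.8.2, Trimmomatic 0.35 and STAR 2.5.1b on GRCh38; the annotation release is not given in the sources used here. The deposited values are raw counts of reads per gene. The column counted on the opposite strand was used, since 92.2% to 94.5% of stranded gene reads fell there. Lines that name no gene (20.7% to 30.0% of reads) were left out. Identifiers were matched to GENCODE 29 (57836 of 58174).

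Counts were filtered with filterByExpr (minimum count 10, minimum total 15), scaled by TMM and tested with the edgeR 4.0.16 quasi-likelihood test (R 4.3.3) with genotype and title set as terms and Benjamini-Hochberg adjustment over 13743 genes and a threshold of 0.05. Standard errors were calculated back from the F statistic. Correlations used log2 CPM with a prior count of 2. The members and lists were chosen with earlier results of these data known. From each list, the called genes with the lowest p (up to 4 in each direction), the most abundant uncalled gene and the members' receptors are named, with the genes of highest r for each member. Values given beyond that rule (TLR3, TRADD, TRAF3IP2, C3, RELA, IL1B, CSF2, ICAM1, IL6, VCAM1, ZC3H12A, COL1A1, COL1A2 and the title set values of TNFAIP3, NFKBIZ and PTGS2) were chosen after the values were seen. DESeq2 1.42.0, limma-voom (limma 3.58.1), other scalings and filters, unstranded counts, subsets of libraries and the replicate numbers as a block were the alternatives, and the long-title set without wild-type library 1 was added after the data were seen. One item of the marker lists is not reported here.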

Additional observations from a re-analysis of the deposited data

Results flagged for a closer look

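Each of the following is the value of wild-type long-title library 1 among the 5 wild-type libraries, in which its gap to the next library was over 0.71 of the whole range (Dixon's criterion for 5 values). CXCL1 stood at 182 CPM, CXCL5 at 776 CPM, CXCL3 at 26.3 CPM, CXCL6 at 27.4 CPM and CCL2 at 121 CPM. Of 22 groups looked at, 5 were marked, all in this library; chance marks about 1 in 20 groups, and the 5 genes share the library. Among T348I libraries no chemokine gene was marked. Since title sets are mixed in these groups of 5, a large gap between sets makes the criterion harder to meet.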

How the results depend on the processing

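The count of genes called between genotypes was 3709, and it was 1315 without the title set term, 1197 in the long-title libraries alone, 1534 in the short-title libraries alone, 1462 with the T348I long-title libraries summed, 2042 in the long-title libraries without wild-type library 1 (chosen after seeing the data), and 2450 to 4676 on leaving out each library, lowest without T348I short-title library 1 and highest without wild-type long-title library 2. The lists held 29 called genes, and 3, 9, 7 and 6 under the first 4 of these settings and 17 to 40 on leaving out each library; of the 29 themselves, 3, 8, 6 and 6 kept their call under those 4 settings, and 15 kept it without each library in turn. The calls between title sets, 5918, ranged from 4850 to 7047 on leaving out each library. The interaction went from 0 calls to 2 with DESeq2, 91 with no low-count filter, 1 without both wild-type long-title libraries 1 and 2, and 0 to 1 on leaving out each library. The median genotype difference of the 8 chemokine genes, 0.15, was -0.18 without the title set term, -0.25 in the long-title libraries alone, 0.98 in the short-title libraries alone (a median without CCL20, which was not fitted there), 0.42 without both wild-type long-title libraries 1 and 2, and -0.02 to 0.38 on leaving out each library. The genotype value of CXCR4 turned to 0.070 in the short-title libraries alone, to 0.14 in the long-title libraries without wild-type library 1 and to 0.10 without that library, that of TNIP1 to 0.030 in the short-title libraries alone, and that of GPC1 to 0.12, 0.040 and 0.0021 in the long-title libraries without library 1, without that library and without wild-type long-title library 3. On leaving out each library the value of CXCR4 ran from -0.32 to 0.10 and that of GPC1 from -0.12 to 0.040. The causes were not tested. Replicate numbers did not pair the libraries: same-numbered libraries deviated together with r of -0.03, 0.16 and 0.07 in the long-title set and 0.22 in the short-title set. With the replicate block 3741 genes and 31 list genes were called and the chemokine median was 0.28. The other values for single genes gave 957 cases of the same call or level, 19 of a moved value, 137 of a lost call and 11 of a gained one. Depth limits CXCL16, CXCL6 and, in the short-title set, CCL20, with 3 to 17, 1 to 350 and 4 to 10 counts.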
